A study of Mus musculus with 4 samples.

Results

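The comparison described here set RAW264.7 cells that had received the free oligosaccharide (fOS) pool of Trex1-/- cells against RAW264.7 cells that had received a mock extraction. Its members were the 10793 genes, of 17655 in the expression table, whose FPKM was at least 1 in 1 of these 2 libraries. FPKM counts fragments relative to transcript length and library size, so levels of different genes can be compared per length and a higher share for some genes lowers that of others. RAW264.7 is a macrophage-like line derived from a mouse tumour. All 4 libraries of the study came from cells of passages 2 to 10 whose membranes were opened with digitonin and which were then kept with the added solution for 24 h. The fOS library received 10 µM of the pool extracted from Trex1-/- cells, which is a mixture of glycans, and the mock extraction library received the water of a mock fOS extraction. The second control was a library that received ultrapure water in the same way, and the remaining library received 10 µM of the disaccharide Manβ1-4GlcNAc (ManGn). With 1 library per condition nothing could be replicated and no test, standard error or p-value was possible, so every count and ratio describes these libraries. Whether the cultures were grown, extracted and sequenced together is not given in the sources used here, and a difference between cultures cannot be told apart from a difference between treatments.

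Free oligosaccharides are glycans released either from the lipid-linked precursor that the oligosaccharyltransferase of the endoplasmic reticulum uses to glycosylate proteins, or from misfolded glycoproteins by the N-glycanase NGLY1. TREX1 is an exonuclease on the endoplasmic reticulum that degrades cytosolic DNA, and its C-terminal part also interacts with the oligosaccharyltransferase. Macrophages respond to danger signals with cytokine and interferon programmes, and they change their metabolism as they do so, through transcription factors such as HIF-1, ATF4, NRF2, LXR, MYC and the FOXO proteins.

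In the fOS library the genes of the ATF4 amino acid response, the hypoxia response, glycolysis, the growth brakes linked to FOXO, the circadian clock, LXR and MHC class II stood lower than in the mock extraction library. Genes of ribosome biogenesis, nucleotide synthesis, the proteasome, heat shock, the NRF2 antioxidant programme and the interferon response stood higher. For nucleotide synthesis, the proteasome and heat shock the shift was in the medians, with 1, 0 and 1 members at least 2-fold higher. The ratio of each gene was taken as log2 of FPKM plus 0.1 with fOS over FPKM plus 0.1 with the mock extraction, a scale that understates the ratios of low genes. At least 2-fold higher with fOS were 299 of the 10793 genes (2.77%) and at least 2-fold lower were 716 (6.63%). Over the same genes and against water, 1596 were higher by that fold (14.8%) and 1360 lower (12.6%). Both comparisons use the 1 fOS library. Against both controls at once, 213 genes were higher (1.97%) and 498 lower (4.61%). Of the 299 genes higher than with the mock extraction, 81 were within 2-fold of water and 5 at least 2-fold below it. Of the 716 lower genes, 200 were within 2-fold of water and 18 at least 2-fold above it. Among the 873 genes that reached 100 FPKM in 1 of the 2 libraries, 19 were higher and 36 lower. The median log2 ratio of all 10793 genes was -0.017 over the mock extraction and 0.077 over water, and these are the levels against which the lists are read. The quartiles over the mock extraction were -0.37 and 0.28.

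A total of 62 pathway lists were examined by the median log2 ratio of their measured members. The lists and their members were chosen with earlier results of these data known. Their shares, set beside those of all genes, and the counts of lists are therefore descriptions only. A list was called near the median of all genes where it lay within 0.3 of it, which held for 34 lists. Of the other 28 lists, 25 held against water, that is, they kept their side of the median of all genes and at least 0.5 of their distance from it. Among these 25 were 11 lists above the median and 14 below it. The aminoacyl-tRNA synthetases and the macrophage identity genes kept their side with a smaller distance, and the Fc receptor and complement list changed its side.

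**Figure D1:**
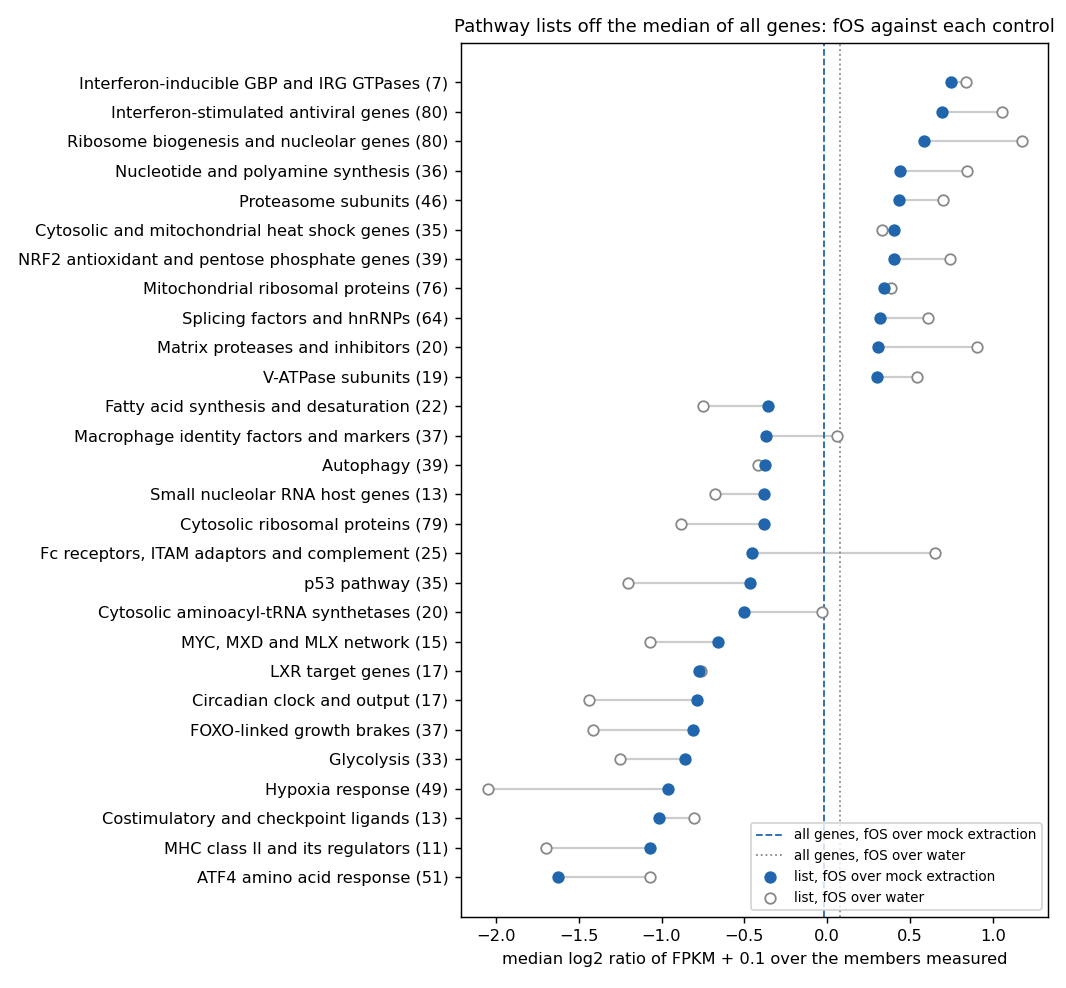
Median log2 ratio of FPKM + 0.1 (x axis) for the 28 pathway lists that lay more than 0.3 from the median of all genes, with the number of measured members in brackets. Filled points give fOS over mock extraction and open points fOS over water, with the medians of all genes as dashed and dotted lines at -0.017 and 0.077. The ATF4 list stood lowest against the mock extraction, at -1.62, and the hypoxia list lowest against water, at -2.05.

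The ATF4 amino acid response was the list furthest from the other genes. ATF4 is a transcription factor whose protein is made when the initiation factor eIF2α is phosphorylated, as in amino acid shortage, and its targets make, import and activate amino acids. Of 51 measured members, 35 were at least 2-fold lower with fOS (68.6%, against 6.63% of all genes) and 0 higher, and the median log2 ratio was -1.62. Against water 27 were lower (all genes, 12.6%) and 5 higher, with a median of -1.07, so the list held. As many as 25 members were at least 2-fold lower than in both controls (all genes, 4.61%). The median of the list for the mock extraction over water was 0.71, beside 0.094 for all genes.
The pseudokinase gene Trib3, a feedback inhibitor of ATF4, had 0.41 FPKM with fOS, against 39.1 after mock extraction and 4.85 with water. Ddit3, which encodes the stress factor CHOP, had 8.49 FPKM with fOS, against 159 after mock extraction and 25.8 with water. For both genes fOS was lowest and the mock extraction highest. Chac1, a glutathione-degrading enzyme, had 1.07 FPKM with fOS, against 16.2 after mock extraction and 1.07 with water, so its log2 ratio was -3.80 over the mock extraction while fOS and water did not differ. Atf4 itself showed the same pattern, with 78.9 FPKM with fOS, against 261 after mock extraction and 79.2 with water.
Asns, which makes asparagine, had 37.8 FPKM with fOS, against 133 after mock extraction and 81.3 with water, and was at least 2-fold below both controls. Nupr1, a chromatin-associated stress protein, had 18.3 FPKM with fOS, against 219 after mock extraction and 128 with water. Cystathionine gamma-lyase (Cth), which makes cysteine, had 0.57 FPKM with fOS, against 9.71 after mock extraction and 3.35 with water. The mitochondrial folate enzymes Aldh1l2 and Mthfd2 had log2 ratios of -4.46 and -1.64 over the mock extraction and -4.97 and -1.34 over water. The amino acid carriers Slc1a4 and Slc6a9, for neutral amino acids and glycine, had 0.64, 9.36 and 1.41 FPKM and 0.96, 10.9 and 4.83 FPKM with fOS, the mock extraction and water. Sesn2, a leucine sensor that restrains mTORC1, had 1.95 FPKM with fOS, against 14.3 after mock extraction and 9.29 with water, and Soat2, which esterifies cholesterol, had 1.17 FPKM with fOS, against 9.48 after mock extraction and 5.55 with water. Members on the other side included Slc7a11, the cystine carrier, at 153, 115 and 91.2 FPKM in the same order of libraries, and the tubulin Tubb6 at 126, 87.8 and 90.2 FPKM.
Promoter sequences were taken from RefSeq on GRCm38.p6, from 250 bases before to 50 after the annotated start, and matched 8600 of the 10793 genes by gene ID. The C/EBP-ATF site was searched as TGATGNAA on both strands. It was present in the promoters of 12 of 41 matched members (29.3%) and in 2.81% of all matched genes, and a match is a description of letters, not a site. The promoters of 2 named members are shown to place the letters, with the match in capitals. They were those with a single annotated start, the lowest log2 ratios and a match, with promoters on 1 chromosome passed over. They are written on the minus strand of chr2:152344011-152344310 for Trib3 (gene ID 228775) and the plus strand of chr2:119350992-119351291 for Chac1 (gene ID 69065).
Trib3: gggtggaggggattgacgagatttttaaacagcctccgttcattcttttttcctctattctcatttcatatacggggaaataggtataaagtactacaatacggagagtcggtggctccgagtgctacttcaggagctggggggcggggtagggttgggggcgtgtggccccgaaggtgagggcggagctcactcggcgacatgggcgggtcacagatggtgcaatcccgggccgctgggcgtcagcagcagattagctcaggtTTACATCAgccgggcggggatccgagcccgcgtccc
Chac1: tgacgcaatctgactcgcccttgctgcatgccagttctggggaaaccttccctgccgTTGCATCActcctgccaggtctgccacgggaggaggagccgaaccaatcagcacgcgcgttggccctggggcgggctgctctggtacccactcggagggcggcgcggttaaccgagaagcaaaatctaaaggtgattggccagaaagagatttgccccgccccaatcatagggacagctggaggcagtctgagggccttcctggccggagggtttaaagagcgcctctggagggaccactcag

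Genes of enzymes that charge tRNAs with amino acids were lower with fOS than with the mock extraction, at a smaller size. Of 20 cytosolic aminoacyl-tRNA synthetases 4 were at least 2-fold lower (20%, against 6.63% of all genes) and 0 higher, at a median of -0.50. Against water the median was -0.032, with 1 lower (all genes, 12.6%) and 2 higher (all genes, 14.8%), so little of the distance remained. Cars, for cysteine, had 21.7 FPKM with fOS, against 65.2 after mock extraction and 38.5 with water, and Aars, for alanine, had 40.95 FPKM with fOS, against 118 after mock extraction and 72.7 with water. The synthetase for asparagine, Nars, had 103 FPKM with fOS, against 241 after mock extraction and 133 with water, and Sars, for serine, had 72.1 FPKM with fOS, against 177 after mock extraction and 164 with water. Of these, Sars alone was at least 2-fold below water as well. Hars, for histidine, had 98.9 FPKM with fOS, against 76.8 after mock extraction and 38.5 with water, and Farsa, a subunit for phenylalanine, had 34.9, 23.1 and 18.9 FPKM with fOS, the mock extraction and water. The list of serine and one-carbon metabolism lay near the median of all genes (-0.023), with members on both sides. Phgdh and Psph, the first and last enzymes of serine synthesis, had log2 ratios of -1.36 and -1.83. Gcsh, of the glycine cleavage system, and Mat2a, which makes S-adenosylmethionine, had 1.19 and 0.95, and Mat2a stood at 108 FPKM with fOS, against 55.8 after mock extraction and 11.97 with water.

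**Figure D2:**
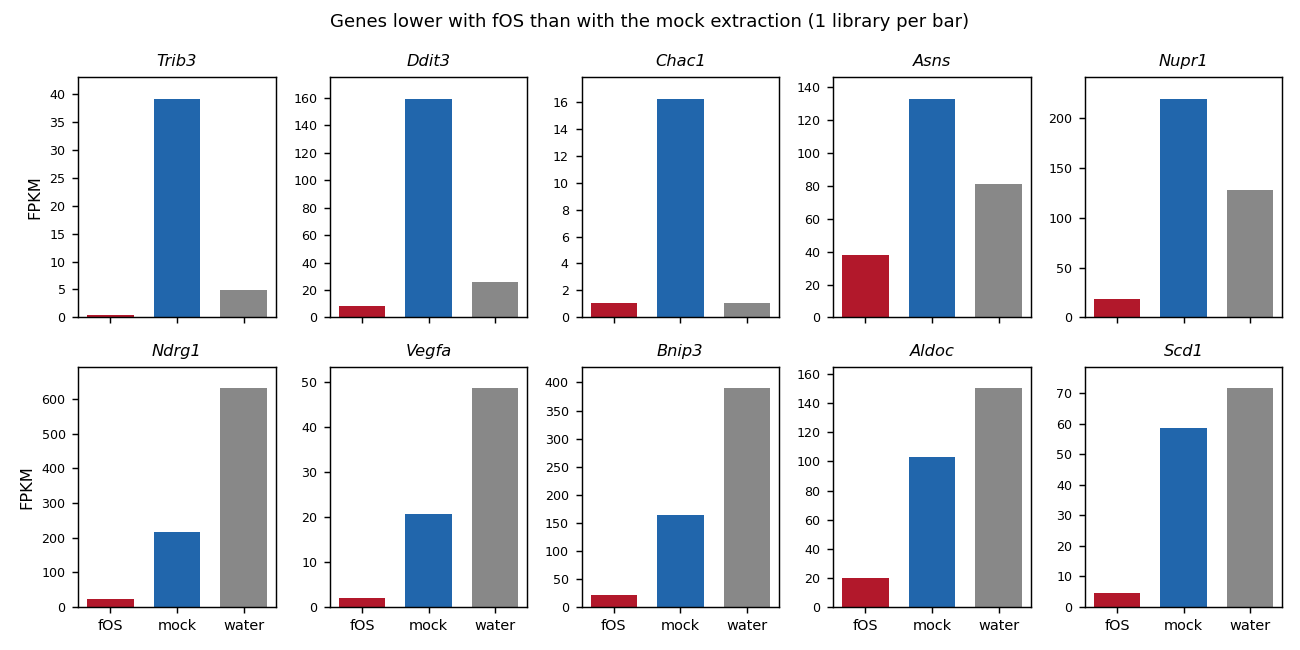
FPKM (y axis, linear from 0) of 10 genes in the fOS, mock extraction and water libraries, 1 library per bar, so no error bar can be drawn. The fOS bar is the lowest of the 3 in every panel but that of Chac1, where fOS and water both stand at 1.07.

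Genes of the hypoxia response were lower with fOS than with the mock extraction and lower still relative to water. HIF-1 is the oxygen-regulated factor whose targets shift cells to glycolysis, signal to vessels and trim mitochondria. Of 49 measured members 24 were at least 2-fold lower (48.98%, against 6.63% of all genes) and 1 higher, at a median of -0.96, and against water 37 were lower (all genes, 12.6%) and 0 higher, with a median of -2.05. The list held. The mock extraction itself stood below water, with a median of -1.05 for the mock extraction over water, so by these medians fOS was lowest and water highest.
Vegfa, the vascular growth factor, had 2.06 FPKM with fOS, against 20.6 after mock extraction and 48.5 with water. The differentiation gene Ndrg1 had 22.5 FPKM with fOS, against 215 after mock extraction and 631 with water, and Bnip3, which marks mitochondria for autophagy, had 20.4 FPKM with fOS, against 163 after mock extraction and 389 with water. Ankrd37, a direct HIF-1 target, had 1.35 FPKM with fOS, against 22.1 after mock extraction and 109 with water. In all these genes fOS was lowest and water highest. Adm, which encodes the vessel-relaxing peptide adrenomedullin, had 0.13 FPKM with fOS, against 5.83 after mock extraction and 66.9 with water. Fam162a, a mitochondrial protein, had 61.9 FPKM with fOS, against 239.6 after mock extraction and 700.3 with water. Selenbp1, a methanethiol oxidase, had 3.17 FPKM with fOS, against 23.2 after mock extraction and 238 with water, and the cyclin gene Ccng2 had 1.22 FPKM with fOS, against 18.9 after mock extraction and 62.3 with water. Hif1a, named after its values were seen, had 32 FPKM with fOS, against 30.7 after mock extraction and 27.9 with water.
On the other side, the 1 member at least 2-fold higher had a log2 ratio of 3.42 over the mock extraction and was not 2-fold above water. Among members that reached 5 FPKM in 1 of the 2 libraries, the oxygen-sensing hydroxylase Egln2 had 14.8, 11.2 and 9.41 FPKM with fOS, the mock extraction and water. Hilpda, a lipid droplet protein, had 10.1 FPKM with fOS, against 7.28 after mock extraction and 20.9 with water.
The core of the hypoxia response element was searched as ACGTG on both strands. It was present in the promoters of 28 of 43 matched members (65.1%), in 20 of 32 of the glycolysis list (62.5%) and in 30.4% of all matched genes. The promoters of Ankrd37 (gene ID 654824, minus strand of chr8:45999801-46000100) and Bnip3 (gene ID 12176, minus strand of chr7:138909457-138909756) were chosen by the same rule as those above. Matches are in capitals. In Bnip3 both matches share the palindrome in capitals, which reads ACGTG on each strand.
Ankrd37: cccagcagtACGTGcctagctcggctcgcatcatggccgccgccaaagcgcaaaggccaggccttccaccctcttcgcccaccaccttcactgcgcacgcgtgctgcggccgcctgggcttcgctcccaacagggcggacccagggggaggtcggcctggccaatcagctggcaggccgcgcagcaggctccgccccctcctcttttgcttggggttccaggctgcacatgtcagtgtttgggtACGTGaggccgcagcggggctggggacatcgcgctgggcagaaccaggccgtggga
Bnip3: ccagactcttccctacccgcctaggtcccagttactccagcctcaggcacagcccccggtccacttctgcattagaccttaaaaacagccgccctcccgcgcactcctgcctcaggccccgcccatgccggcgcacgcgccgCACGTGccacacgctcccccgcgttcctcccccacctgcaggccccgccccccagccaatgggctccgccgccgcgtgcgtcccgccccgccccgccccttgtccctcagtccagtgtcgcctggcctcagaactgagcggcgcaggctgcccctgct

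Genes of glycolytic enzymes were lower with fOS as well, and the list shares members with that of hypoxia. Of 33 measured members 13 were at least 2-fold lower with fOS (39.4%, against 6.63%) and 0 higher, at a median of -0.86, and against water 21 were lower (all genes, 12.6%) and 2 higher, with a median of -1.25, so the list held. Aldoc, an aldolase, had 19.8 FPKM with fOS, against 103 after mock extraction and 150.2 with water, and Pfkp, a phosphofructokinase subunit, had 31.8 FPKM with fOS, against 101 after mock extraction and 232 with water. The enolase Eno2 had 2.45 FPKM with fOS, against 14.9 after mock extraction and 113 with water, and Pdk1, which keeps pyruvate out of mitochondria, had 9.75 FPKM with fOS, against 28.5 after mock extraction and 39.3 with water. Pgk1, an abundant enzyme named after its values were seen, had 476 FPKM with fOS, against 1210.5 after mock extraction and 1969 with water. Each of these 5 genes was lowest with fOS and highest with water. Pgm2, a phosphoglucomutase, had 15.1, 41.5 and 69.3 FPKM with fOS, the mock extraction and water. Hk3, a hexokinase of myeloid cells, and the lactate carrier Slc16a1 stood on the other side, at 39.5, 30.8 and 19.9 FPKM and 57.1, 32.2 and 27.8 FPKM in the same order. Mitochondrial lists lay elsewhere. The TCA cycle (27 genes, median 0.019), complex I (37, 0.082), complexes III and IV (24, -0.044) and ATP synthase (17, 0.12) lay near the median of all genes, with 0, 0, 2 and 0 members at least 2-fold lower (all genes, 6.63%). Against water their medians were -0.12, 0.014, -0.43 and 0.10. Cycs, which encodes cytochrome c, had 136 FPKM with fOS, against 66.3 after mock extraction and 50.05 with water, and Cox6a2, a muscle form of a complex IV subunit, had 2.72 FPKM with fOS, against 10.3 after mock extraction and 22.2 with water.

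**Figure D3:**
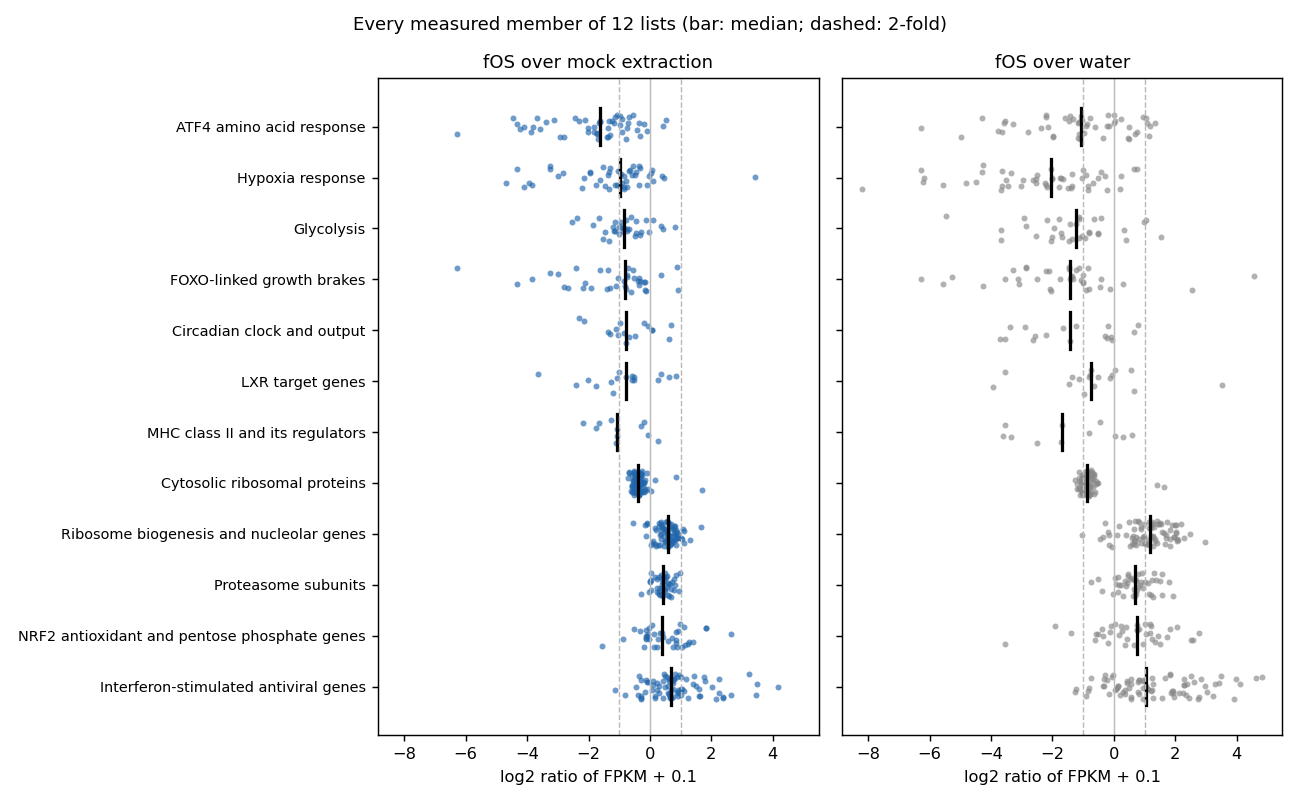
Log2 ratio of FPKM + 0.1 (x axis) of every measured member of 12 lists, fOS over mock extraction on the left and fOS over water on the right. Each point is a gene, bars give the list medians and dashed lines 2-fold. The ATF4, hypoxia and glycolysis members lie mostly below 0, the ribosomal proteins form a narrow group at -0.38, and most ribosome biogenesis and proteasome members lie above 0.

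Genes that restrain growth and are linked to FOXO factors, which are active when insulin and growth factor signals are low, formed another low list. Of 37 measured members 17 were at least 2-fold lower with fOS (45.9%, against 6.63%) and 0 higher, at a median of -0.81, and against water 27 were lower (all genes, 12.6%) and 2 higher, with a median of -1.42. The list held, and it shares Trib3, Sesn2, Ccng2, Bnip3 and Klf4 with other lists. Klf4, a transcription factor of monocyte differentiation, had 4.65 FPKM with fOS, against 30.4 after mock extraction and 11.9 with water. On the other side Il7r, the interleukin-7 receptor chain, had 33.3 FPKM with fOS, against 17.5 after mock extraction and 1.32 with water, and Trib1, a relative of Trib3 that helps degrade C/EBPα, had 3.7 FPKM with fOS, against 1.96 after mock extraction and 0.56 with water.
The network of MYC and its antagonists was read with all 15 measured members. Its median was -0.66 over the mock extraction and -1.07 over water, and it held. The antagonists Mxd4 and Mxd1 had 2.46, 9.19 and 24.3 FPKM and 1.15, 2.81 and 10.7 FPKM with fOS, the mock extraction and water, and Mnt had 13.2, 26.7 and 27.9 FPKM. The arrestin-like genes Txnip and Arrdc4, which limit glucose uptake and report glucose through MLX, had 92, 419 and 1085 FPKM and 3.11, 9.84 and 27.7 FPKM in the same order. Mycn, whose level was higher than that of Myc in all 3 libraries, had 165 FPKM with fOS, against 273 after mock extraction and 377 with water, while Myc had 8.78 FPKM with fOS, against 1.12 after mock extraction and 0.79 with water. Max, the partner of the MYC, MXD and MNT proteins, had 64.4, 58.5 and 40.2 FPKM, within 2-fold in all 3 libraries.
Members of the p53 pathway had a median of -0.47, with 9 of 35 at least 2-fold lower (25.7%, against 6.63%) and 3 higher (8.57%, against 2.77%). Against water the median was -1.21, with 19 lower (all genes, 12.6%). Bbc3 (PUMA), which triggers cell death, had 2.98 FPKM with fOS, against 26.5 after mock extraction and 42.2 with water, and Gadd45a, a DNA damage response gene, had 4.02 FPKM with fOS, against 21.2 after mock extraction and 7.24 with water. Cdkn1a, the cell cycle inhibitor p21, named after its values were seen, had 76.3 FPKM with fOS, against 125 after mock extraction and 436 with water. In the other direction Aen, a nuclease induced by p53, had 27.8 FPKM with fOS, against 11.5 after mock extraction and 21.3 with water, and the kinase Plk2 had 8.32 FPKM with fOS, against 3.53 after mock extraction and 3.99 with water.
Clock genes were lower as well, with 6 of 17 at least 2-fold lower (35.3%, against 6.63%) and 0 higher, at a median of -0.79. Against water the median was -1.44, with 10 lower (all genes, 12.6%). Nfil3, Bhlhe40 and Nr1d1, which repress clock genes, had 3.1, 13.98 and 19.03, 11.2, 27.8 and 35.4 and 1.88, 4.18 and 25.7 FPKM with fOS, the mock extraction and water. The clock repressors Cry2 and Per1 had 2.37, 6.34 and 15.1 FPKM and 7.34, 13.4 and 54.6 FPKM in the same order, and Arntl, the activator, had 8.45, 17.5 and 9.62 FPKM, close to water. Clock, its partner, had 13.2, 8.48 and 7.64 FPKM, highest with fOS.
Of 39 autophagy genes 7 were at least 2-fold lower (17.9%, against 6.63%) and 0 higher. The median was -0.38, and -0.42 over water, so the list held. Ulk1, the kinase that starts autophagy, had 3.28 FPKM with fOS, against 6.82 after mock extraction and 14.1 with water, and Calcoco1, a receptor for selective autophagy, had 3.47 FPKM with fOS, against 11.6 after mock extraction and 22.4 with water. The lipidated proteins Gabarapl1 and Gabarapl2 had 29.2, 22.9 and 54.9 FPKM and 57.8, 43.01 and 35.9 FPKM with fOS, the mock extraction and water.

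Among lipid genes, the desaturases stood lower with fOS than in either control. LXR, a receptor for oxysterols, drives export of cholesterol and desaturation of fatty acids. Of 17 measured LXR targets 8 were at least 2-fold lower (47.1%, against 6.63%) and 0 higher, at a median of -0.78 over the mock extraction. Over water the median was -0.76, with 5 lower (all genes, 12.6%) and 1 higher (all genes, 14.8%), so the list held. The desaturases Scd1 and Scd2 had 4.55, 58.6 and 71.6 FPKM and 37.1, 199.6 and 439 FPKM with fOS, the mock extraction and water. Both stood more than 5-fold below the mock extraction. Abca1 and Abcg1, which export cholesterol, had 3.34, 13.8 and 6.61 FPKM and 13.1, 44.4 and 13.8 FPKM, and here the mock extraction stood above both other libraries, with fOS within 2-fold of water. Apoe, a carrier of lipids, had the highest ratio of the list, with 4.77 FPKM with fOS, against 2.62 after mock extraction and 3.18 with water. Nr1h3, which encodes LXRα itself, had 8.57 FPKM with fOS, against 5.58 after mock extraction and 0.66 with water, and Nr1h2, for LXRβ, had 18.6, 27.99 and 26.5 FPKM in that order.
Fatty acid synthesis had a median of -0.35 over the mock extraction and -0.75 over water, and held. Of 22 members 7 were at least 2-fold lower than with the mock extraction (31.8%, against 6.63%) and 1 higher (4.55%, against 2.77%). The list shares Scd1, Scd2, Fads1, Fads2 and Srebf1 with the LXR list. Lpin1, a phosphatidate phosphatase, had 0.97 FPKM with fOS, against 5.88 after mock extraction and 23.3 with water, and Acss2, which makes acetyl-CoA from acetate, had 4.56 FPKM with fOS, against 11.5 after mock extraction and 22.3 with water. Me1, the malic enzyme that makes NADPH, was the higher member, with 22.3 FPKM with fOS, against 6.18 after mock extraction and 3.7 with water. Cholesterol synthesis lay near the median of all genes (-0.28), with 3 of 28 lower (10.7%, against 6.63%) and 0 higher. Against water it lay further below that of all genes (-0.82), with 12 lower (all genes, 12.6%). Fdps, of the isoprenoid branch, had 54.5 FPKM with fOS, against 137 after mock extraction and 166 with water, and Srebf2, the regulator of the pathway, had 21.9 FPKM with fOS, against 46.98 after mock extraction and 74.7 with water. The sterol regulatory element, searched as TCACNCCAC on both strands, was present in the promoters of 1 of 21 matched members and in 1.37% of all matched genes.
The list of scavenger receptors and lipid handling was near the median (0.16), with large members in both directions. Of 39 members 5 were at least 2-fold higher (12.8%, against 2.77%) and 2 lower (5.13%, against 6.63%). Cd36, a receptor for oxidized lipoprotein and long fatty acids, had 234 FPKM with fOS, against 62.8 after mock extraction and 35.4 with water. Msr1, the class A scavenger receptor, had 438 FPKM with fOS, against 168 after mock extraction and 31.2 with water. The fatty acid carriers Fabp4 and Fabp3 had 22.9, 7.52 and 1.28 FPKM and 8.85, 2.01 and 2.32 FPKM with fOS, the mock extraction and water, and Lipa, the lysosomal lipase, had 366, 158 and 172 FPKM. These 5 genes were highest with fOS. On the lower side Ppard, a nuclear receptor for fatty acids, had 3.87 FPKM with fOS, against 11.5 after mock extraction and 20.5 with water, and Pltp, which transfers phospholipids, had 35.3 FPKM with fOS, against 73.8 after mock extraction and 91.04 with water.

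Transcripts of genes for antigen presentation to T cells through MHC class II were lower with fOS. Of 11 measured members 7 were at least 2-fold lower (63.6%, against 6.63%) and 0 higher, at medians of -1.07 over the mock extraction and -1.70 over water, and the list held. With genes of FPKM of at least 5 alone, which leaves out most of the low chains, the median over the mock extraction was -0.30. Cd74, the invariant chain, was the abundant one, with 124 FPKM with fOS, against 394 after mock extraction and 698 with water. The chains H2-Ab1 and H2-Aa had 0.87, 3.21 and 11.2 FPKM and 0.79, 1.77 and 10.7 FPKM with fOS, the mock extraction and water, and Rfx5, a factor that binds class II promoters, had 4.33, 10.5 and 14.3 FPKM. All 4 were lowest with fOS and highest with water. The peptide exchange genes H2-DMb1 and H2-DMb2 are near-identical copies, so their split is uncertain. They had 0.50, 2.6 and 6.02 FPKM and 1.74, 3.73 and 3.15 FPKM. The abundant members Ctss and Ifi30, a cathepsin and a thiol reductase that also act outside class II presentation, had 1555, 1608 and 1042 FPKM and 441, 541 and 427 FPKM, within 2-fold of the mock extraction. In bulk RNA fewer cells that carry such transcripts and less RNA per cell cannot be told apart.
Costimulatory and checkpoint ligands had a median of -1.01, with 7 of 13 lower (53.8%, against 6.63%) and 1 higher (7.69%, against 2.77%). Their median over water was -0.81, and the list held. Tnfrsf14 (HVEM), which signals through BTLA, had 0.43 FPKM with fOS, against 4.44 after mock extraction and 5.02 with water. The ligand Tnfsf9 (4-1BBL) had 14.6 FPKM with fOS, against 37.3 after mock extraction and 21.7 with water, and Pvrl2, a ligand of DNAM-1, had 1.54 FPKM with fOS, against 5.78 after mock extraction and 13.8 with water. Cd40 and Cd80 stood at 0.90, 2.29 and 7.26 FPKM and 2.59, 5.33 and 3.41 FPKM with fOS, the mock extraction and water. Cd274 (PD-L1) had 4.13, 8.13 and 11.5 FPKM. Lgals9, the galectin that binds TIM-3, was the member at least 2-fold higher, with 46.6 FPKM with fOS, against 20.3 after mock extraction and 17.1 with water, and Havcr2, which encodes TIM-3, had 34.3 FPKM with fOS, against 19.1 after mock extraction and 14.6 with water.
MHC class I presentation was near the median (-0.15), with 1 of 31 higher (3.23%, against 2.77%) and 1 lower (3.23%, against 6.63%). The nonclassical gene H2-T24 had 28.2 FPKM with fOS, against 7.8 after mock extraction and 7.01 with water, and H2-Q6, which has near-identical copies, had 20.8 FPKM with fOS, against 61.7 after mock extraction and 83.2 with water.

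Of the 28 lists off the median of all genes, that of Fc receptors and complement was the 1 whose side depended on the control. Some lists near that median changed side too, such as cytokine receptor chains, with -0.27 over the mock extraction and 0.64 over water. Fc receptors, their ITAM adaptors and complement genes had a median of -0.45 over the mock extraction, with 8 of 25 at least 2-fold lower (32%, against 6.63%) and 0 higher. Against water the median was 0.65, with 8 higher (all genes, 14.8%) and 2 lower (all genes, 12.6%). The mock extraction over water had a median of 0.83. Itgam (CD11b), a chain of complement receptor 3, had 44.4 FPKM with fOS, against 136 after mock extraction and 103 with water, at least 2-fold below both controls. Fcgr4, an activating Fc receptor, had 4.46 FPKM with fOS, against 16.4 after mock extraction and 9.26 with water. Pira1, a receptor that pairs with the Fc receptor gamma chain and has near-identical copies, had 15.2 FPKM with fOS, against 37.97 after mock extraction and 5.26 with water. C3ar1, the receptor for C3a, had 44.8 FPKM with fOS, against 31.6 after mock extraction and 6.47 with water, and the microglial receptor Trem2 had 293, 214 and 212 FPKM with fOS, the mock extraction and water.
Predicted, small nucleolar RNA, microRNA and histone genes were left out of the next count. Of the other genes that reached 5 FPKM in 1 of the 3 libraries, 6 were at least 2-fold lower than with the mock extraction and at least 2-fold higher than with water, and 0 the other way. They were Adh7, an alcohol dehydrogenase, the paired immunoglobulin-like receptor genes Pira11, Pira1 and Lilrb3, the AP-1 repressor Jdp2 and Slc7a5, the leucine carrier. Slc7a5 had 35.9 FPKM with fOS, against 75.9 after mock extraction and 14 with water, and Jdp2 20.2 FPKM with fOS, against 45.8 after mock extraction and 9.69 with water.
The macrophage identity list had a median of -0.37 over the mock extraction and 0.059 over water, beside 0.077 for all genes. Of 37 members 3 were at least 2-fold lower than with the mock extraction (8.11%, against 6.63%) and 2 higher (5.41%, against 2.77%). Beside Klf4 and Itgam, the third lower member was Maf, a factor of mature macrophages named after its values were seen, at 1.03, 4.21 and 2.6 FPKM with fOS, the mock extraction and water. Just under 2-fold lower were Cx3cr1, the fractalkine receptor, at 31.2, 61.96 and 36.8 FPKM and Cd33 at 22.8, 45.5 and 41.3 FPKM. Msr1 was higher, and Tfec, a factor of the MITF family found in macrophages, had 21.1 FPKM with fOS, against 7.62 after mock extraction and 4.1 with water. The defining macrophage markers Csf1r, Emr1 (F4/80), Cd68, Lyz2, Sfpi1 and Fcgr1 had 414, 43.9, 1321, 6202, 238 and 11.1 FPKM with fOS. They had 526, 39.6, 1324, 6770.2, 207 and 14.03 FPKM after mock extraction, and 256, 58.9, 1039, 7250, 96.7 and 6.74 FPKM with water. Itgam, also among these markers, was at least 2-fold lower with fOS than in both controls, as given above. Transcripts of all these markers were present in both libraries. Not so the apoptotic cell receptor gene Mertk, at 0.08 FPKM with fOS and listed at 0 with the mock extraction.
Few markers of other cell types passed the filter. Of the listed T cell, B cell, fibroblast, epithelial and mast cell markers, 1, 1, 1, 0 and 0 reached FPKM of 1. They were Lck at 0.72, 1.29 and 1.3 FPKM with fOS, the mock extraction and water, Cd22 at 1.53, 2.17 and 2.31 and S100a4, which macrophages also express, at 2519.8, 1938 and 1884. Of the neutrophil markers 3 of 6 in the table did, namely Cxcr2 at 27.9, 21.2 and 29.8 FPKM with fOS, the mock extraction and water, Csf3r at 2.34, 5.58 and 2.68 and S100a8 at 0.52, 1.37 and 0.27.

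Genes of the machinery that makes ribosomes were higher with fOS, while the messages of ribosomal proteins were lower. Of 80 ribosome biogenesis and nucleolar genes 7 were at least 2-fold higher (8.75%, against 2.77% of all genes) and 0 lower, and 75 lay above the median of all genes. The median was 0.59 over the mock extraction and 1.18 over water, with 47 higher (all genes, 14.8%) and 1 lower, so the list held. Grwd1, a chaperone of ribosomal protein L3, had 24.6 FPKM with fOS, against 7.68 after mock extraction and 3.09 with water. Pno1, needed for the small subunit, had 74.3 FPKM with fOS, against 30 after mock extraction and 16.2 with water, and Utp20, of the processome that handles pre-ribosomal RNA, had 22.3 FPKM with fOS, against 10.2 after mock extraction and 3.89 with water. Dkc1, the pseudouridine synthase dyskerin, had 74.1 FPKM with fOS, against 34.6 after mock extraction and 17.3 with water, and Nip7, an assembly factor, had 39.6, 18.7 and 21.6 FPKM with fOS, the mock extraction and water. These 5 genes were highest with fOS, and all but Nip7 were lowest with water. Polr1c, a subunit shared by RNA polymerases I and III, was lower, with 19.5 FPKM with fOS, against 28.5 after mock extraction and 40.1 with water.
Cytosolic ribosomal protein genes made a narrow group. All but 4 of 79 lay below the median of all genes (75 genes), the median was -0.38 and the quartiles were -0.50 and -0.28, with 0 at least 2-fold lower (all genes, 6.63%) and 1 higher (all genes, 2.77%). Against water the median was -0.89, with 25 lower (all genes, 12.6%), and the list held. Rpl23 had 1064 FPKM with fOS, against 1742 after mock extraction and 2023 with water, Rps7 had 647 FPKM with fOS, against 1036 after mock extraction and 1311 with water and Rpl32 had 1695 FPKM with fOS, against 2587 after mock extraction and 3464 with water. Rpl26 and Rpl30 stood apart, at 14.4, 4.34 and 5.35 FPKM and 71.6, 39.6 and 23.04 FPKM with fOS, the mock extraction and water, and these genes have many processed copies, so their FPKM are uncertain. Genes of ribosomal proteins carry a 5′ terminal oligopyrimidine tract, as do some translation factors, and of those Eef2, the elongation factor, had 829.7 FPKM with fOS, against 1349 after mock extraction and 1869 with water.
Mitochondrial ribosomal proteins had a median of 0.34 over the mock extraction and 0.39 over water, and held. Of 76 members 3 were at least 2-fold higher (3.95%, against 2.77%) and 0 lower. Mrpl34 had 31.3 FPKM with fOS, against 13.2 after mock extraction and 28.9 with water, and Mrpl18 had 107 FPKM with fOS, against 47.9 after mock extraction and 61.5 with water. Translation factors lay near the median (0.16). The repressor Eif4ebp1, an ATF4 target, had 75.3 FPKM with fOS, against 199 after mock extraction and 201 with water, and the initiation factor Eif3j1 had 35.4 FPKM with fOS, against 14.6 after mock extraction and 14.7 with water.
Nucleotide and polyamine synthesis had a median of 0.44 over the mock extraction and 0.85 over water, and held. Of 36 members 30 lay above the median of all genes, 1 was at least 2-fold higher (2.78%, against 2.77%) and 0 lower. Srm, which makes spermidine, had 98.2 FPKM with fOS, against 48.6 after mock extraction and 26.1 with water. Ppat, the first enzyme of purine synthesis, had 26.8 FPKM with fOS, against 15.4 after mock extraction and 8.52 with water, and Umps, of pyrimidine synthesis, had 25.3 FPKM with fOS, against 14.6 after mock extraction and 9.28 with water. Odc1, the first enzyme of polyamine synthesis, had 114 FPKM with fOS, against 64.6 after mock extraction and 47.8 with water. In these 4 genes fOS was highest and water lowest. Splicing factors (64 genes) had a median of 0.32 over the mock extraction and 0.61 over water, with 0 higher (all genes, 2.77%) and 1 lower (all genes, 6.63%). A list of small nucleolar RNA hosts and other long noncoding RNAs had -0.38 and -0.68, and -0.25 over the mock extraction without a filter on low FPKM. Its 2 members at least 2-fold lower (15.4%, against 6.63%) were Neat1 and Malat1, long nuclear RNAs not known as such hosts, which had 58.8, 262 and 156 FPKM and 59.7, 151 and 169 FPKM with fOS, the mock extraction and water.
Genes of DNA replication and the G1/S transition lay near the median of all genes over the mock extraction (0.28), with 2 of 65 higher (3.08%, against 2.77%) and 0 lower. Over water their median was 1.03, with 34 higher (all genes, 14.8%) and 0 lower. The cyclins Ccne2 and Ccne1 had 30.1, 14.1 and 5.08 FPKM and 27.9, 15.7 and 5.81 FPKM, and Ccnd1 had 145, 75.2 and 45.6 FPKM with fOS, the mock extraction and water. The replication helicase factor Hells had 59.8 FPKM with fOS, against 32.2 after mock extraction and 12.96 with water. Genes of mitosis were near the median against either control (0.094 and 0.26).

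Among genes of protein quality control, the proteasome and heat shock lists had higher medians with fOS. That of endoplasmic reticulum chaperones lay near the median of all genes. Of 46 proteasome subunits and assembly factors 44 lay above the median of all genes, although 0 were at least 2-fold higher (all genes, 2.77%). The median was 0.44 over the mock extraction and 0.70 over water, where 13 were at least 2-fold higher (all genes, 14.8%), so the list held. Psmd1 and Psmd12, of the regulatory particle, had 108, 55.1 and 44.4 FPKM and 109.6, 56.4 and 38.9 FPKM with fOS, the mock extraction and water. The core subunit Psma4 had 209, 118 and 91.5 FPKM. The immunoproteasome subunit Psmb9, by contrast, had 15.8, 19.6 and 26.9 FPKM, below both controls.
Cytosolic and mitochondrial heat shock genes had medians of 0.40 and 0.33, and held. Of 35 members 30 lay above the median of all genes, 1 was at least 2-fold higher (2.86%, against 2.77% of all genes) and 0 lower. Hsph1 (HSP105) had 60.2 FPKM with fOS, against 21.6 after mock extraction and 19.6 with water, Hsp90aa1 had 445 FPKM with fOS, against 235 after mock extraction and 114 with water and Hspa4 had 147 FPKM with fOS, against 82.9 after mock extraction and 64.1 with water. The chaperonin subunit Cct6a had 283, 158 and 82.6 FPKM and the cochaperone Ahsa1 126, 70 and 47.3 FPKM in the same order of libraries. The list of endoplasmic reticulum chaperones and the unfolded protein response was near the median (0.25, and -0.11 over water). Members of it lay on both sides. Hspa5 (BiP) had 517 FPKM with fOS, against 258 after mock extraction and 574 with water and Manf 87.1 FPKM with fOS, against 42.5 after mock extraction and 80.3 with water, each about 2-fold above the mock extraction and within 2-fold of water. Herpud1, of the degradation pathway of that compartment, had 12.2 FPKM with fOS, against 49.5 after mock extraction and 26 with water, and Ern1, the sensor IRE1α, had 5.73 FPKM with fOS, against 16.4 after mock extraction and 18.1 with water.
Subunits of the V-ATPase, which acidifies lysosomes, had medians of 0.30 and 0.54, and held. Of 19 members 2 were at least 2-fold higher (10.5%, against 2.77%) and 0 lower. Atp6v0d2, a form of macrophages and osteoclasts, had 29.8 FPKM with fOS, against 12.3 after mock extraction and 5.2 with water, and Atp6v1h had 69.9 FPKM with fOS, against 33.6 after mock extraction and 27.9 with water. Lysosomal hydrolases were near the median (-0.18, -0.27 over water), with Gm2a, an activator of ganglioside breakdown, at 17.5, 41.8 and 71.1 FPKM and Ctsk, the collagen-degrading cathepsin K, at 185, 112 and 56.5 FPKM.
The lists that follow the making and breakdown of the glycans themselves lay near the median of all genes. Lipid-linked oligosaccharide assembly had 0.16 (32 genes, 0 higher and 0 lower), the oligosaccharyltransferase 0.25 (12, 0 and 0) and free oligosaccharide release and breakdown -0.21 (30, 0 and 0). Over all genes 2.77% were higher and 6.63% lower, so counts of 0 on lists this short say little. The lysosomal mannosidases Man2b1 and Man2b2 had 28.4, 46.2 and 52.4 FPKM and 32.7, 51.3 and 61.5 FPKM with fOS, the mock extraction and water, and the cytosolic mannosidase Man2c1, which trims free oligosaccharides, had 11.2, 15.1 and 15.7 FPKM. Pmm2, which makes mannose 1-phosphate, had 40 FPKM with fOS, against 23.9 after mock extraction and 9.63 with water. The catalytic subunits Stt3a and Stt3b had 104, 87.2 and 94.3 FPKM and 50.1, 41.8 and 55.4 FPKM. Trex1 itself, named after its values were seen, had 23.9 FPKM with fOS, against 19.02 after mock extraction and 14.4 with water.

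**Figure D4:**
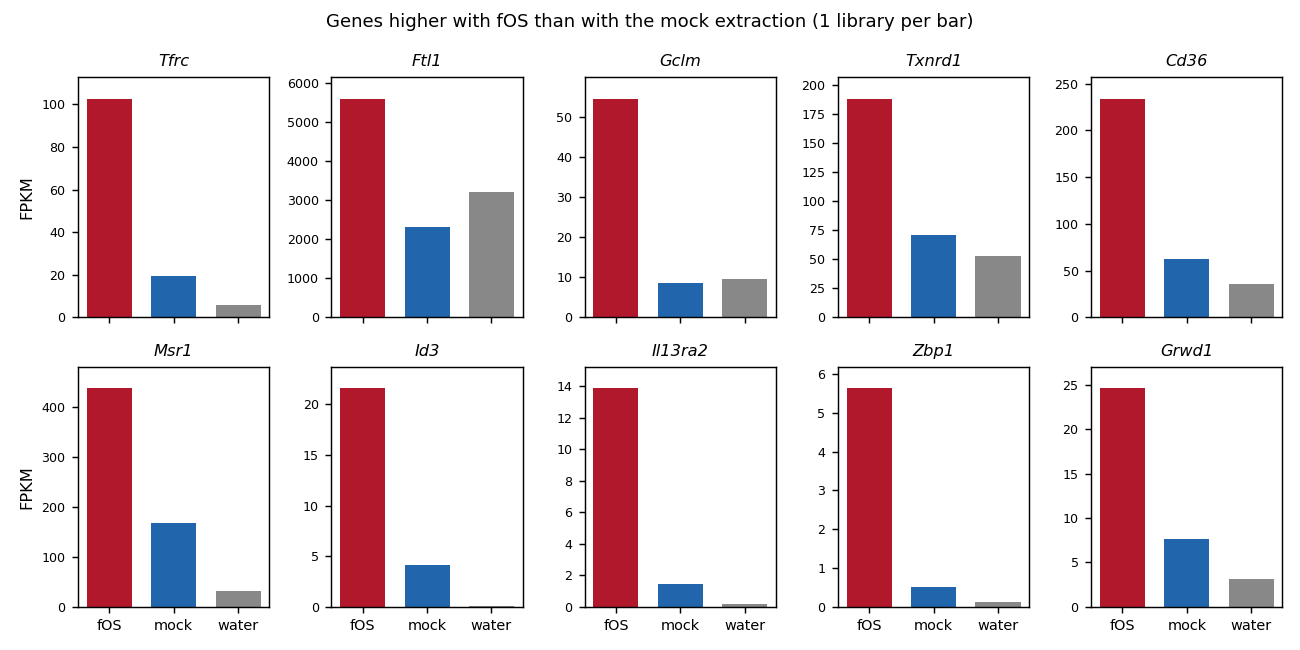
FPKM (y axis, linear from 0) of 10 genes in the fOS, mock extraction and water libraries, 1 library per bar, so no error bar can be drawn. The fOS bar is the highest of the 3 in every panel, from 5.63 FPKM for Zbp1 to 5579 FPKM for Ftl1.

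Genes of the NRF2 antioxidant programme, with those of the pentose phosphate pathway that supplies its NADPH, were higher with fOS. Of 39 measured members 9 were at least 2-fold higher (23.1%, against 2.77%) and 1 lower, at a median of 0.40 over the mock extraction and 0.74 over water, where 14 were higher (all genes, 14.8%) and 3 lower, and the list held. Gclm, the regulatory subunit of the enzyme that starts glutathione synthesis, had 54.4 FPKM with fOS, against 8.63 after mock extraction and 9.46 with water. Srxn1, which repairs peroxiredoxins, had 48.3 FPKM with fOS, against 13.7 after mock extraction and 7.07 with water, and the thioredoxin reductase Txnrd1 had 188 FPKM with fOS, against 70.9 after mock extraction and 52.8 with water. In each of these genes the 2 controls lay nearer to each other than to fOS. Hmox1, which breaks down heme, had 123 FPKM with fOS, against 55.9 after mock extraction and 92.1 with water, so it was less than 2-fold above water. At least 2-fold above both controls were 6 members (all genes, 1.97%), and 13 of the 39 lay below the median of all genes. Ephx1, an epoxide hydrolase, was the 1 member at least 2-fold lower than with the mock extraction. It had 10.97 FPKM with fOS, against 32.8 after mock extraction and 129.5 with water. Nfe2l2, which encodes NRF2 and was named after its values were seen, had 112, 122 and 57.5 FPKM with fOS, the mock extraction and water.
Iron genes lay near the median as a list (0.22, 0.49 over water), with 4 of 22 at least 2-fold higher (18.2%, against 2.77%) and 1 lower (4.55%, against 6.63%). Tfrc, the transferrin receptor, had the highest ratio of them and of all genes that reached 100 FPKM in 1 of the 2 libraries, with 102 FPKM with fOS, against 19.6 after mock extraction and 6.0 with water. Ftl1, the ferritin light chain, which has many processed copies, had 5579 FPKM with fOS, against 2305 after mock extraction and 3201 with water, and Slc48a1, a heme carrier of lysosomes, had 51.8 FPKM with fOS, against 22.1 after mock extraction and 39.2 with water. Slc11a1, which pumps iron out of phagosomes, had 71.8 FPKM with fOS, against 39.2 after mock extraction and 24.3 with water.

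Interferon-stimulated genes stood higher with fOS than in either control. Their products block viral replication and sense viral RNA. Of 80 measured members 26 were at least 2-fold higher (32.5%, against 2.77% of all genes) and 1 lower, with a median of 0.70, and against water 41 were higher (all genes, 14.8%) and 2 lower, with a median of 1.06, so the list held. As many as 24 members were at least 2-fold above both controls (all genes, 1.97%). Zbp1, a sensor of Z-form nucleic acids, had 5.63 FPKM with fOS, against 0.52 after mock extraction and 0.13 with water. Ifi44 had 47.4 FPKM with fOS, against 9.93 after mock extraction and 4.99 with water, and its relative Ifi44l had 9.33 FPKM with fOS, against 1.7 after mock extraction and 1.05 with water. Oas2, which makes the messenger of RNase L, had 24.6 FPKM with fOS, against 5.49 after mock extraction and 2.42 with water, and Xaf1, an antagonist of XIAP, had 6.39 FPKM with fOS, against 1.16 after mock extraction and 1.25 with water. In these 5 genes fOS stood more than 4-fold above either control. Ifitm6, the member at least 2-fold lower, and Ifitm2 encode membrane proteins that hinder viral entry, and they had 30.4, 66.3 and 54.8 FPKM and 289, 507 and 693 FPKM with fOS, the mock extraction and water.
The GTPases of the GBP and IRG families had a median of 0.75 over the mock extraction and 0.84 over water, on 7 members. Of these, 2 were at least 2-fold higher (28.6%, against 2.77%) and 1 lower (14.3%, against 6.63%) relative to the mock extraction. Irgm1 alone reached 5 FPKM in the fOS or mock extraction library, so the list rests on low values. Irgm1 had 28.3 FPKM with fOS, against 9.23 after mock extraction and 5.69 with water, and Irgm2 had 4.98 FPKM with fOS, against 2.42 after mock extraction and 2.09 with water. Gbp8 went the other way, with 0.080 FPKM with fOS, against 4.81 after mock extraction and 1.49 with water, and Gbp5 had 2.23, 4.45 and 5.47 FPKM with fOS, the mock extraction and water. Gvin1, which has near-identical copies, reached 3.53 FPKM in the fOS library and 1.98 after mock extraction, and is listed at 0 with water. The sensors that feed interferon induction were near the median (0.12), with 1 of 35 higher (2.86%, against 2.77%) and 1 lower (2.86%, against 6.63%). The DNA sensor cGAS (Mb21d1) had 20.6 FPKM with fOS, against 12.4 after mock extraction and 11.6 with water, its partner STING (Tmem173) 6.6 FPKM with fOS, against 11.4 after mock extraction and 4.79 with water, and the RNA sensors Ddx58 (RIG-I) and Dhx58 had 14.03, 8.46 and 10.8 FPKM and 13.8, 7.18 and 16.2 FPKM in that order.
The interferon-stimulated response element was searched on both strands as GAAA, any 2 bases, GAAA. It was present in the promoters of 28 of 65 matched members (43.1%), in 11 of the 19 matched members that were at least 2-fold higher and in 3.87% of all matched genes. Cxcl10, a chemokine that draws T cells, had 3.39 FPKM with fOS, against 0.90 after mock extraction and 0.54 with water. Shown by the same rule, but for the highest log2 ratios, are the promoters of Cxcl10 (gene ID 15945, minus strand of chr5:92348840-92349139), and Irgm1 (gene ID 15944, minus strand of chr11:48871371-48871670), with the matches in capitals, of which Irgm1 has 2 that overlap.
Cxcl10: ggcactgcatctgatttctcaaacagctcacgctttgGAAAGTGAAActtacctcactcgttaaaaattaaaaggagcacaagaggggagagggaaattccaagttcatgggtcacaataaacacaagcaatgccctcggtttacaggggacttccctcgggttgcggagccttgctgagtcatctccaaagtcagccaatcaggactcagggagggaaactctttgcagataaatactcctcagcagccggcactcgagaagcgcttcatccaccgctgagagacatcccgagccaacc
Irgm1: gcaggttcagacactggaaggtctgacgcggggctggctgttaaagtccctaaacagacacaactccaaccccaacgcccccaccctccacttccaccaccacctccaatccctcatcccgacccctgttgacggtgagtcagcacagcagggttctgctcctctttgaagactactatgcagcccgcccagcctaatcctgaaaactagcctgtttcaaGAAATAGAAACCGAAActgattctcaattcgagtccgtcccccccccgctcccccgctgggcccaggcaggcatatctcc

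The medians of the inflammatory lists lay near that of all genes over the mock extraction, while several members stood far higher. The cytokines and effectors of NF-κB had 0.20 with members on both sides (7 of 24 higher, 29.2% against 2.77%, and 5 lower, 20.8% against 6.63%), its subunits and inhibitors -0.080, Toll-like receptors -0.048, inflammasome genes -0.19 and chemokines -0.030. Of the chemokines 4 of 12 were at least 2-fold higher (33.3% against 2.77%) and 1 lower, and all 4 higher ones were at least 2-fold above both controls. They were Ccl2, which draws monocytes, at 36.6, 4.44 and 1.91 FPKM with fOS, the mock extraction and water, Ccl5, which draws T cells, at 4.9, 0.18 and 0.72 FPKM, Cxcl10, and Cxcl14 at 1.52, 0.11 and 0.70 FPKM. Over water the same lists stood at 0.74, 0.45, 0.42, 0.39 and 0.60, beside 0.077 for all genes, and the mock extraction over water at 0.73, 0.42, 0.56, 0.51 and 0.57, beside 0.094. Il1rn, the interleukin-1 receptor antagonist, had 82.7 FPKM with fOS, against 31.5 after mock extraction and 6.03 with water, and Casp1, which matures interleukin-1β, had 58.9 FPKM with fOS, against 28.6 after mock extraction and 23.1 with water. On the lower side Saa3, an acute phase protein, had 2.04 FPKM with fOS, against 13.4 after mock extraction and 3.36 with water, and Cd83 had 8.07 FPKM with fOS, against 28.5 after mock extraction and 31.9 with water. The lectin receptor Clec4d (Dectin-3) had 346 FPKM with fOS, against 97.8 after mock extraction and 42.8 with water, and Clec4a2 had 29.2 FPKM with fOS, against 11.9 after mock extraction and 3.36 with water. Clec10a, which binds galactose-type sugars, had 3.51 FPKM with fOS, against 15.4 after mock extraction and 28.8 with water, and Clec7a (Dectin-1) had 16.7 FPKM with fOS, against 33.7 after mock extraction and 33.8 with water.

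Signalling genes with few members off the median included the targets of BMP and TGF-β. Of 30 members 6 were at least 2-fold higher (20%, against 2.77%) and 0 lower, although the median was 0.015. The inhibitors of differentiation Id1, Id2 and Id3, which BMP signals induce, had 6.08, 0.33 and 0.45, 39.2, 7.09 and 4.6 and 21.6, 4.1 and 0.11 FPKM with fOS, the mock extraction and water. Pmepa1, a TGF-β target that limits SMAD signals, had 10.9 FPKM with fOS, against 0.13 after mock extraction and 0.070 with water, and Skil, an inhibitor of SMADs, had 13.03 FPKM with fOS, against 6.56 after mock extraction and 4.47 with water. The receptor chain Tgfbr2 had 39.2, 67.05 and 55.6 FPKM.
Among cytokine receptors (40 genes, median -0.27, and 0.64 over water) the decoy receptor Il13ra2 had 13.9 FPKM with fOS, against 1.47 after mock extraction and 0.19 with water, while Il13ra1, the signalling chain for interleukin-13, had 8.52 FPKM with fOS, against 19.6 after mock extraction and 28.5 with water. Il10ra, the interleukin-10 receptor chain, had 4.83 FPKM with fOS, against 16.8 after mock extraction and 41.6 with water, and Tnfrsf12a, the TWEAK receptor, had 16.3 FPKM with fOS, against 6.52 after mock extraction and 7.93 with water. The AP-1 factors Fosl1 and Fos had 9.73, 1.11 and 1.52 FPKM and 34.4, 13.7 and 3.68 FPKM with fOS, the mock extraction and water, while Atf3 and Ier3 stood lower, at 28.5, 62.7 and 55.5 FPKM and 9.4, 24.6 and 96.6 FPKM. ERK feedback genes lay near the median (-0.26). Dusp5 and Dusp6, phosphatases of ERK in the nucleus and the cytoplasm, stood on different sides, at 4.1, 0.35 and 0.70 FPKM and 3.57, 8.15 and 5.49 FPKM.
Matrix proteases and their inhibitors had medians of 0.31 and 0.90, with 4 of 20 higher (20%, against 2.77%) and 0 lower, and held. Without a filter on low FPKM the median over the mock extraction was 0.12, which is near that of all genes. Plau, the urokinase, and Plaur, its receptor, had 95.6, 46.5 and 46.4 FPKM and 52.2, 27.1 and 14.4 FPKM, and Serpinb9b, a serpin, had 9.1, 2.42 and 0.43 FPKM with fOS, the mock extraction and water. The sheddase Adam8 had 238, 120.0 and 55.7 FPKM. Osteoclast genes were near the median (0.15, and 0.87 over water), with Ctsk and Atp6v0d2 as their higher members. The lipid mediator enzymes Alox5 and Ltc4s, which make leukotrienes, had 8.25, 47.03 and 54.5 FPKM and 2.0, 5.48 and 10.3 FPKM in the same order.

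Some of the genes furthest from the mock extraction belonged to no list. On the higher side Npy, the neuropeptide Y gene, had 5.6 FPKM with fOS, against 0.56 after mock extraction and 0.19 with water, and Vegfc, a growth factor for lymph vessels, had 9.6 FPKM with fOS, against 1.43 after mock extraction and 0.37 with water, Olfml3, a secreted matrix protein, had 7.83 FPKM with fOS, against 0.86 after mock extraction and 0.17 with water, and the kinase gene Dmpk had 7.38 FPKM with fOS, against 1.13 after mock extraction and 0.70 with water. Hmga2, a chromatin protein of growing cells, had 102 FPKM with fOS, against 29.4 after mock extraction and 11.99 with water, Esd, an esterase, had 369.6 FPKM with fOS, against 99.9 after mock extraction and 95.3 with water, and Por, which feeds electrons to cytochromes P450, had 118 FPKM with fOS, against 41.7 after mock extraction and 34.2 with water. Akr1b8, an aldo-keto reductase, had 143 FPKM with fOS, against 51.2 after mock extraction and 43.03 with water. Each of these genes was highest with fOS. On the lower side Pck2, which makes phosphoenolpyruvate in mitochondria, had 3.49 FPKM with fOS, against 34.98 after mock extraction and 27.5 with water, and Rras, a small GTPase, had 3.53 FPKM with fOS, against 24.1 after mock extraction and 69.5 with water, Ypel3 had 2.69 FPKM with fOS, against 26.6 after mock extraction and 58.8 with water, and Lsp1, a leukocyte actin-binding protein, had 35.01 FPKM with fOS, against 123 after mock extraction and 145 with water. Gas7, a gene of growth arrest, had 53.8 FPKM with fOS, against 187 after mock extraction and 107 with water, which put fOS just within 2-fold of water. The sialyltransferases St3gal6 and St6gal1, which cap glycans with sialic acid and were named after their values were seen, had 15.3, 51.3 and 32.7 FPKM and 6.52, 21.3 and 30.7 FPKM with fOS, the mock extraction and water.

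The precision of the low genes was read from the depth. FPKM values of genes with 1 transcript were read as steps of whole reads, which gave about 10969000 reads for fOS, 10313000 for the mock extraction, 10337000 for water and 10358000 for ManGn, with 62.9% to 66.9% of the low values within 0.1 of a whole read. The read numbers are estimates. Estimated reads of Trib3 were 9 with fOS, against 801 with the mock extraction, and the exact 95% interval of the ratio of the mock extraction over fOS ran from 49.6 to 208. For Adm, with 2 reads against 81, it ran from 11.5 to 362, and for Chac1, with 19 against 267, from 9.38 to 25.2. For the ratio of fOS over the mock extraction, Id3, with 293 reads against 52, had an interval from 3.93 to 7.26, and Il13ra2, with 341 against 34, from 6.62 to 13.8. Olfml3, with 466 against 48, had one from 6.77 to 12.6. These intervals cover counting error only and none of the variation between cultures. Genes listed at 0 in 1 of the libraries were given no fold.
Small noncoding and histone genes rested on few reads. Of 67 small nucleolar RNAs 27 were at least 2-fold higher and 14 lower, of 61 microRNA genes 27 and 27, and of 19 replication-dependent histone genes 1 and 10. Over all genes the shares were 2.77% higher and 6.63% lower. Histone messages mostly lack a poly(A) tail and histone genes have near-identical copies, so these FPKM are uncertain.

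The disaccharide library was set against water only, for the 12 pathway lists whose medians over the mock extraction lay furthest from that of all genes. The ratios of ManGn over water hold no values of the fOS and mock extraction libraries. Those libraries did set which lists were chosen and which members passed the filter. With ManGn over water the medians were -0.27 for the ATF4 list, -1.20 for MHC class II, -0.091 for costimulatory and checkpoint ligands, -0.56 for hypoxia, -0.24 for glycolysis, -0.78 for the FOXO-linked genes, -0.84 for the clock, -0.20 for LXR targets and -0.68 for the MYC network, beside 0.061 for all genes. They were 0.10 for the GBP and IRG GTPases, 0.25 for the interferon-stimulated genes and 0.65 for ribosome biogenesis. The corresponding medians of fOS over water, which share the water library with them, were -1.07, -1.70, -0.81, -2.05, -1.25, -1.42, -1.44, -0.76, -1.07, 0.84, 1.06 and 1.18.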

How the data were processed

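RNA of 4 RAW264.7 libraries was sequenced, and the authors deposited FPKM values per gene, made with RSEM according to the submitters' processing notes. For the RSEM version, the aligner and the build, the entry is "not given in the sources used here". Fold-change columns and lists that the authors derived from these values were not used. Genes with FPKM of at least 1 in the fOS or mock extraction library were kept, 0.1 was added, and log2 ratios were taken with NumPy 2.4.6 and pandas 2.3.3. Medians and the numbers of genes at least 2-fold higher or lower describe each list, and FPKM cannot enter a count test. The members and lists were chosen with earlier results of these data known, and Nampt, entered in the cholesterol list by mistake, was removed after its values were seen. Genes named in the text come from up to 5 members of each list furthest in the direction of its median and up to 2 on the other side, at 5 FPKM or more in 1 of the 2 libraries, every member of lists of at most 20, the 25 highest and 25 lowest genes on the same side of both controls, the 15 highest and 15 lowest with FPKM of at least 100, the genes between the 2 controls, and macrophage markers. Other genes are marked in the text, and 1 gene is not reported here.
Read numbers of genes with 1 transcript were estimated from the FPKM steps, and exact 95% intervals of their ratios cover counting error only. Promoters (RefSeq, GRCm38.p6) were matched by gene ID, and those shown belong to genes with 1 annotated start, a limit set after the data were seen. Promoters on 1 chromosome were left out of those shown. None is shown for cholesterol synthesis. The calculations were tested on simulated data. Alternatives were water as the control, other pseudocounts, filters and fold limits, 3 scalings, and the table without small RNA, histone and predicted genes.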

Additional observations from a re-analysis of the deposited data

How the results depend on the processing

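With water as the control, over the same genes, 1596 genes were 2-fold or more higher with fOS and 1360 lower, in place of 299 and 716 with the mock extraction. They were 598 and 1256 with no filter, 170 and 401 with FPKM of at least 5, 1053 and 1640 at 1.5-fold, and 100 and 183 at 4-fold, and the lower count was 447 with a pseudocount of 1. Water as the control moved the medians to 1.06 for interferon-stimulated genes, -1.70 for MHC class II, -1.07 for the ATF4 list, -2.05 for hypoxia, 1.18 for ribosome biogenesis, -1.07 for the MYC network, -1.42 for the FOXO-linked genes and -1.44 for the clock. It turned the sign for Fc receptors and complement (0.65) and macrophage identity (0.059). With FPKM of at least 5 the value for the GBP and IRG GTPases was 1.60, which is Irgm1 alone, and the median for MHC class II was -0.30, since fewer genes entered. With no filter the matrix protease list (0.12) and the small nucleolar RNA host list (-0.25) lay within 0.3 of the median of all genes. Over the 28 lists more than 0.3 from the median of all genes and the 8 settings other than water, 0 of 224 medians changed sign and 4 moved. No paired analysis was possible because each condition has 1 library, and for the same reason no library could be left out. A cause for the distance between the controls was not tested.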
